A study of Mus musculus with 8 samples.

Results

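The transcripts described here are the nuclear noncoding RNAs *Malat1* and *Neat1* and the mRNAs of 5 proteins of the paraspeckle, *Nono*, *Sfpq*, *Pspc1*, *Rbm14* and *Tardbp*. They were taken by gene name from the tables of counts and of TPM (a length-corrected abundance that sums to the same total in every library), and all 7 were found and tested among 20071 tested genes of 55487 in the tables. J1 male mouse embryonic stem cells of the 129S4/SvJae strain, labelled as untreated at day 0 (ESC), were compared with embryoid bodies at day 4 (mesoderm, MES), day 6 (cardiac progenitor, CP) and day 10 (cardiomyocyte, CM). The embryoid bodies were formed in hanging drops and then plated with ascorbic acid, each stage had 2 biological replicates, and all libraries came from this single cell line. Total RNA was depleted of ribosomal RNA and sequenced with strand, so RNAs without a poly(A) tail were kept, and the 8 libraries held 18046063 to 19728777 counts. Since the embryoid bodies were mixed populations, more cells with a transcript and more transcript per cell cannot be told apart.

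*Malat1* is a long nuclear RNA that gathers in nuclear speckles, bodies rich in splicing factors. *Neat1* is the RNA on which paraspeckles are built, nuclear bodies that hold back certain RNAs and proteins. *Neat1* is made as a short form with a poly(A) tail and a long form without one, and it is the long form that builds the body. NONO, SFPQ and PSPC1 form pairs with each other and coat the long form, RBM14 is needed for the body to assemble, and TDP-43, the product of *Tardbp*, binds RNA and affects which form of *Neat1* is made. Both long RNAs end by an unusual route in which RNase P cuts before a stretch folded like a tRNA, and the newly made end folds back on U-rich stretches and is protected without a poly(A) tail.

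*Malat1* and *Neat1* lie side by side on the minus strand of chromosome 19 (GRCm38, GENCODE M21), *Malat1* at 5795690 to 5802672 and *Neat1* at 5824708 to 5845478, with 22035 bases between them. Their 3′ ends are shown because they set which forms a library and a gene-level count can see. The ends of the long forms are given as DNA letters up to the cut, and capitals mark runs of 9 or more letters that both share in the same order. Bases 6592 to 6691 of *Malat1* lie at chr19:5795982-5796081 and the last 100 bases of the long *Neat1* at chr19:5824708-5824807, both on the minus strand.
Malat1 before the cut: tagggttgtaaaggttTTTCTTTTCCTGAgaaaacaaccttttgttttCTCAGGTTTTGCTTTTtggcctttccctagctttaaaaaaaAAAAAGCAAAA
Neat1 long form end: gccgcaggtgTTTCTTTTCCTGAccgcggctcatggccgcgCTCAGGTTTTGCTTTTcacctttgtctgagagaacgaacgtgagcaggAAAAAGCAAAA
The 3 shared runs, 40 letters in each, are 2 U-rich stretches and the A-rich end. The bases that follow the cut hold the stretches folded like a tRNA. Here capitals again mark the shared run of 9 letters, and the first sequence lies at chr19:5795921-5795981 and the second at chr19:5824652-5824707.
Malat1 after the cut: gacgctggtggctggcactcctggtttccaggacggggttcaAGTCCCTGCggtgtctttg
Gm27702: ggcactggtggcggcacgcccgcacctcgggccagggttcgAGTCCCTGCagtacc
*Gm27702* is annotated as a gene of its own, with 0 bases between it and the end of *Neat1*, and it received 8 counts over the 8 libraries. The last 60 bases of the short form of *Neat1* lie at chr19:5842307-5842366, near the start of the gene, with the AATAAA signal for a poly(A) tail in capitals.
Neat1 short form end: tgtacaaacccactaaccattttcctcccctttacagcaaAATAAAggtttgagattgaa
The short form has 3004 bases and the long one 20771, and the counts used here were summed over the gene, so the forms were not separated. TPM of *Neat1* was computed by the authors over all 20771 bases. Its TPM, and ratios made with it, therefore do not give numbers of molecules. A change in the mix of the 2 forms and a change in their amount cannot be told apart.

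The largest rise of *Malat1* came at the last step. Its TPM was 2792 and 2737 (ESC), 3072 and 3469 (MES), 4337 and 4414 (CP) and 5899 and 9855 (CM). The stages did not overlap and each mean stood above the one before, but the gap between CM and the others came with the widest spread of replicates (7877 ± 2797, SD, n = 2). By count *Malat1* ranked between 1 and 3 among all genes in every library. It took 1.03% of the counts in CM replicate 1 (95% Wilson interval 1.03 to 1.04) and 1.67% in CM replicate 2 (1.66 to 1.67), where the intervals cover counting error only.

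In TPM *Neat1* stood apart only in the last stage. Its TPM was 35.9 and 28.1 (ESC), 22.0 and 38.6 (MES), 29.5 and 29.1 (CP) and 149 and 88.6 (CM). ESC, MES and CP overlapped and their order could not be resolved beyond the spread, while both CM libraries lay above all 6 others. In counts *Neat1* went from 2888 and 2793 in CP to 15293 and 8197 in CM.

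**Figure D1:**
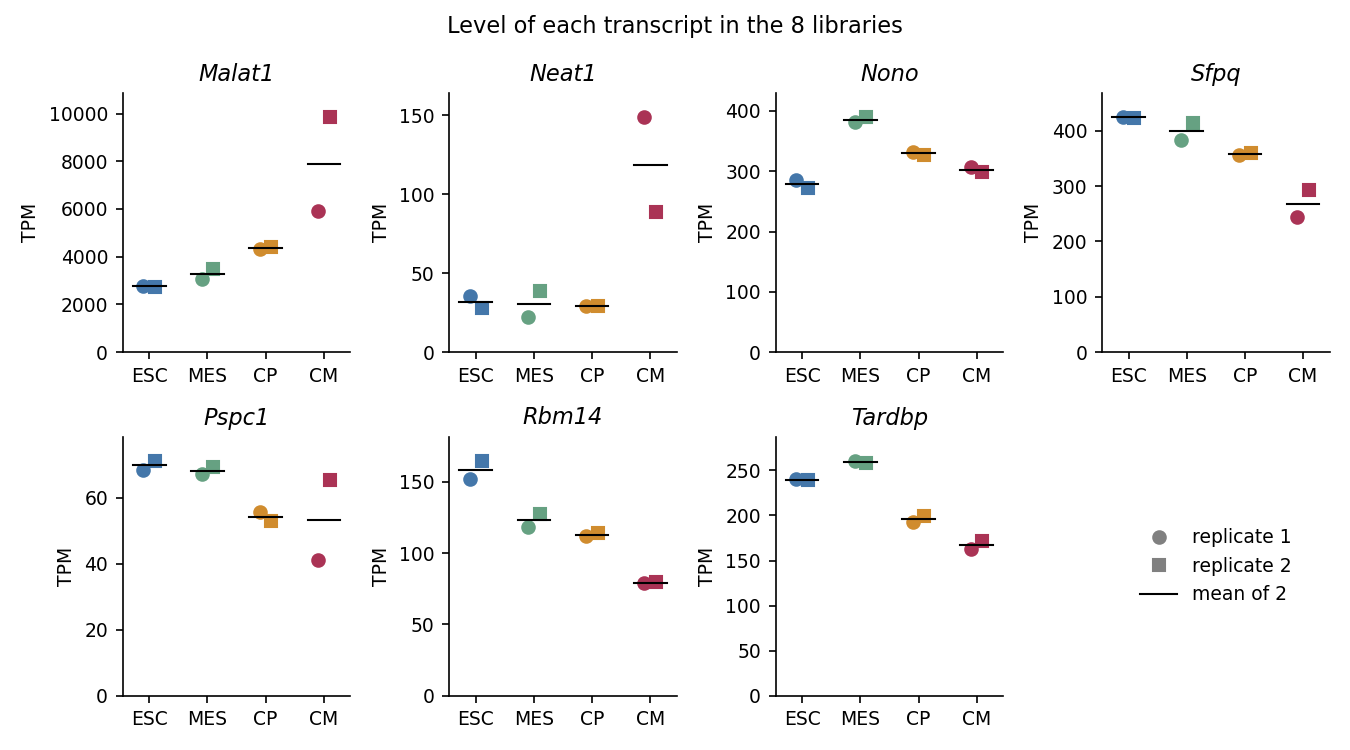
TPM of each of the 7 transcripts (vertical axes, each from 0) at the 4 stages, with circles for replicate 1, squares for replicate 2 and a line at the mean of the 2. *Malat1* and *Neat1* stand highest in CM, *Sfpq* and *Rbm14* step down from ESC to CM, and *Nono* and *Tardbp* are highest in MES.

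All 8 libraries entered 1 quasi-likelihood fit of edgeR after TMM scaling, and p-values were adjusted over all tested genes (Benjamini-Hochberg). A gene passed at an adjusted p under 0.05. In the test for a change at any stage all 7 transcripts passed, as did 81.3% of all tested genes, so passing alone says little about these genes. TMM and TPM put the libraries on different scales. A ratio of TPM between CM and ESC is 1.36 times the ratio of TMM-scaled counts for every gene (0.44 on the log2 scale), and between CP and ESC it is 1.29 times. With library totals in place of TMM, the median gene moved from a log2 fold change of 0.11 to one of 0.33 for CM against ESC. Fold changes below are on the TMM scale, with the standard error after the sign ±.

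Between ESC and MES neither noncoding RNA passed, with log2 fold changes of 0.03 ± 0.16 for *Malat1* (adjusted p = 0.887) and -0.30 ± 0.30 for *Neat1* (adjusted p = 0.413). Of the 7, *Nono* rose, as did 29.7% of all tested genes, and *Rbm14* and *Sfpq* fell, as did 29.1%. Between MES and CP the noncoding RNAs again did not pass, with 0.26 ± 0.16 for *Malat1* (adjusted p = 0.226) and -0.20 ± 0.30 for *Neat1* (adjusted p = 0.648). All 5 protein mRNAs fell at this step, against 18.4% of all tested genes that fell and 18.6% that rose. From CP to CM *Neat1* rose 3.92-fold (log2 1.97 ± 0.31, edgeR adjusted p = 0.00182) and *Malat1* rose 1.69-fold (log2 0.76 ± 0.16, adjusted p = 0.00758), against 12.5% of all tested genes that rose. *Neat1* alone of the 7 passed with a rise over 2-fold, which 8.17% of all tested genes did. *Rbm14*, *Sfpq* and *Tardbp* fell at this last step, against 12.9% of all tested genes.

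Between the ends of the course, ESC and CM, *Neat1* rose 2.78-fold (log2 1.48 ± 0.30, edgeR adjusted p = 0.00148) and *Malat1* rose 2.07-fold (log2 1.05 ± 0.16, adjusted p = 0.000217). The share of all tested genes that rose was 39.1%, and 29.8% rose over 2-fold. All 5 protein mRNAs fell, against 34.6% of all tested genes, and *Rbm14* and *Sfpq* fell over 2-fold, against 21.8%. The 2-fold mark depended on the setting for *Sfpq*, whose log2 fold change was as small as -0.88 among the alternatives. Mean TPM went from 424 in ESC to 268 in CM for *Sfpq* and from 158 to 79.4 for *Rbm14*. In CM against MES the 2 noncoding RNAs rose (28.0% of all tested genes) and both did so over 2-fold (19.1%). Their log2 fold changes were 1.77 ± 0.30 for *Neat1* and 1.02 ± 0.16 for *Malat1*. All 5 mRNAs fell there (26.2%). In CP against ESC 4 of the mRNAs fell (34.1%), all but *Nono*. *Malat1* at 0.29 ± 0.16 (adjusted p = 0.121) and *Neat1* at -0.50 ± 0.30 (adjusted p = 0.162) did not pass there, while 35.9% of all tested genes rose. The 2-fold mark depended on the CM library. Without CM replicate 2 *Malat1* passed at 0.74 from ESC to CM and at 0.71 from MES to CM, and without CM replicate 1 *Neat1* passed at 0.94 from ESC to CM, all under 2-fold. These comparisons share stages and are not independent of each other.

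**Figure D2:**
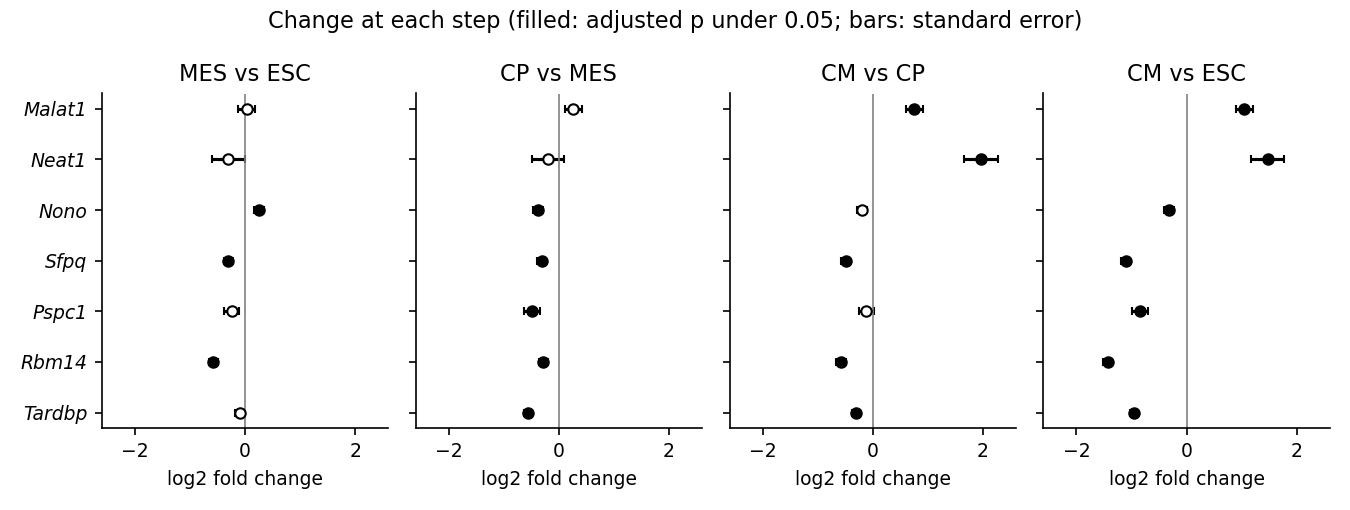
Log2 fold change of the 7 transcripts (rows) at the 3 successive steps and between ESC and CM, with bars of 1 standard error and filled points where the adjusted p is under 0.05. The noncoding RNAs are filled only from CP to CM and from ESC to CM, at 1.97 and 1.48 for *Neat1* and 0.76 and 1.05 for *Malat1*.

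The rise of *Malat1* from CP to CM did not pass when either CP library was left out (adjusted p = 0.0651 without CP replicate 1 and 0.0653 without CP replicate 2) or when only the 2 stages were fitted (0.0677). Without either CM library *Malat1* passed as a rise from ESC to CP, with adjusted p-values of 0.000893 and 0.000847 at an unchanged log2 fold change of 0.29, and without either CM library *Neat1* passed as a fall between these stages (0.0271 and 0.0272, log2 -0.50). Without either CM library *Malat1* also passed as a rise from MES to CP (0.00377 and 0.00360, log2 0.26). With all 8 libraries, limma voom with quality weights also gave *Malat1* as a rise from MES to CP (adjusted p = 0.0308) and from ESC to CP (0.00511). Quasi-likelihood fits of only the 2 stages gave 0.00763 and 5.22e-05 for these rises. Such a fit also gave *Neat1* as a fall from ESC to CP (0.000673). The main fit gives each gene a single spread over all stages. Replicates differed most in CM, with a mean chi-square per gene of 36.8 against 4.02 to 6.95 at the other stages.

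In CM the replicates of the 2 noncoding RNAs stood in opposite order. *Malat1* was 1.67 times as high in replicate 2 as in replicate 1, while *Neat1* in replicate 2 was at 0.595 of its level in replicate 1. The ratio of *Malat1* to *Neat1* TPM was 77.8 and 97.3 (ESC), 140 and 89.9 (MES), 147 and 152 (CP) and 39.6 and 111 (CM). The replicate gap in CM was larger than that of 94.1% of 15892 genes for *Neat1* and of 82.9% for *Malat1*. *Neat1* had also differed between the MES replicates, by more than 97.4% of 14516 genes. Leaving out CM replicate 1 brought the *Neat1* rise from CP to CM to a log2 fold change of 1.44 and leaving out CM replicate 2 brought it to 2.36. For *Malat1* these values were 1.01 and 0.45. The direction was thus the same with either CM library, and the size rested on which one was used.

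**Figure D3:**
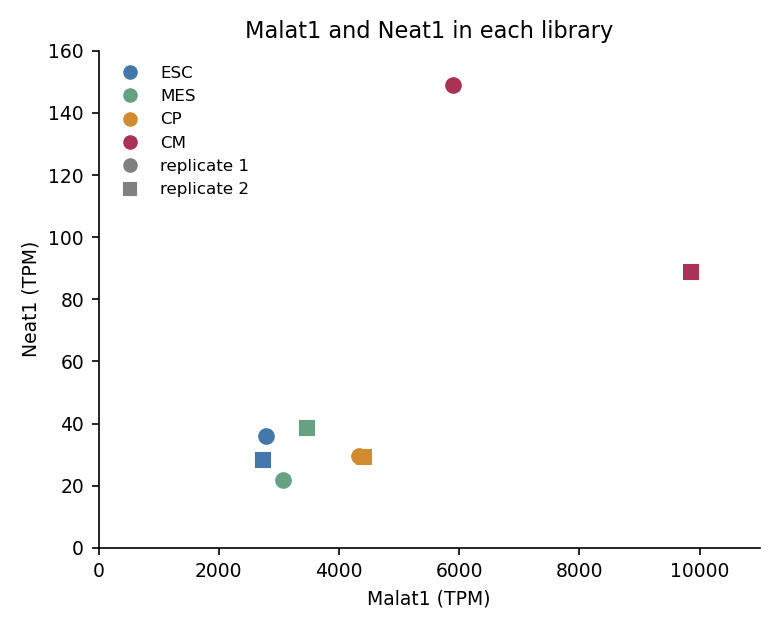
TPM of *Malat1* (horizontal axis) and *Neat1* (vertical axis) in each of the 8 libraries, coloured by stage. The 6 libraries of ESC, MES and CP lie at 38.6 TPM of *Neat1* or less, CM replicate 1 lies at 149 with 5899 of *Malat1*, and CM replicate 2 lies at 88.6 with 9855.

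Other genes separated the CM libraries as well. Of 15 targets of p53, the stress-activated transcription factor known to switch on *Neat1*, all 15 had a higher TPM in CM replicate 2, where *Neat1* was lower, and their summed TPM was 1610 in replicate 1 and 3439 in replicate 2. Of all tested genes 63.4% were higher in replicate 2. Of 13 genes of the response to low oxygen, which is also known to raise *Neat1*, all 13 were higher in replicate 1, with sums of 4969 and 3288. The 8 cardiomyocyte markers were all above 0 in both CM libraries and summed to 222 and 436, after 303 and 464 in CP. From CP to CM 1 of these 8 rose and 2 fell (12.5% and 12.9% of all tested genes). The 8 smooth muscle and fibroblast markers summed to 12444 and 8600 in CM, mostly from *Col1a1* (8155 and 4539). In CP they summed to 7793 and 9123, so the 2 stages overlapped. From CP to CM 3 of these 8 rose and 3 fell (12.5% and 12.9% of all tested genes). Of these 8 markers 4 were higher in each CM replicate. Endoderm markers summed to 571 and 895, endothelial markers to 166 and 105, blood markers to 41.9 and 34.7 and neural markers to 27.5 and 47.6. All were above 0 in both libraries. Of the 5 endothelial markers 2 were higher in replicate 1, among them *Tek* (91.6 and 42.6), and 3 were higher in replicate 2. Blood markers were highest in CP, at 4039 and 3998. The part of these differences in the *Malat1* and *Neat1* values was not tested.

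On the TMM scale the mRNAs of the 5 proteins were lower in CM than in ESC, and *Sfpq* fell at every step. *Sfpq*, whose product is a splicing factor and a core protein of the paraspeckle, had a TPM of 425 and 424 (ESC), 384 and 414 (MES), 356 and 360 (CP) and 243 and 293 (CM). No 2 stages overlapped. It fell by 0.30 on the log2 scale from ESC to MES (edgeR adjusted p = 0.00723), by 0.31 from MES to CP (adjusted p = 0.0109) and by 0.49 from CP to CM (adjusted p = 0.00183), and the fall from ESC to CM was 2.15-fold (log2 -1.11 ± 0.08, adjusted p = 1.01e-06). The first step did not pass without ESC replicate 1 or with scaling by library totals, and the second did not pass without either MES or either CP library.

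*Rbm14* fell the most. Its TPM was 152 and 165 (ESC), 118 and 128 (MES), 112 and 114 (CP) and 79.0 and 79.8 (CM). The stages did not overlap, and the CM replicates differed by less than 1 TPM. The fall was 0.58 on the log2 scale from ESC to MES (adjusted p = 0.000305), 0.28 from MES to CP (adjusted p = 0.0290) and 0.58 from CP to CM (adjusted p = 0.00154), and 2.70-fold from ESC to CM (log2 -1.43 ± 0.09, adjusted p = 4.13e-07). The step from MES to CP did not pass when any of the 6 ESC, MES and CP libraries was left out, with adjusted p-values of 0.0682 to 0.141, or with DESeq2 (0.101).

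*Tardbp* fell from MES onwards. Its TPM was 240 and 239 (ESC), 261 and 258 (MES), 193 and 200 (CP) and 163 and 172 (CM). MES stood above ESC in TPM without overlap, whereas on the TMM scale the difference was -0.10 ± 0.08 and did not pass (adjusted p = 0.318). From MES to CP it fell by 0.56 on the log2 scale (adjusted p = 0.000575) and from CP to CM by 0.30 (adjusted p = 0.0202), and the latter did not pass without CP replicate 1 (0.114), without CP replicate 2 (0.105) or when only the 2 stages were fitted (0.126). From ESC to CM it fell 1.94-fold (adjusted p = 3.02e-06).

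*Pspc1*, the least abundant of the 5, had a TPM of 68.5 and 71.4 (ESC), 67.2 and 69.4 (MES), 55.7 and 52.96 (CP) and 41.3 and 65.5 (CM). ESC and MES overlapped, CP lay below both, and the CM libraries lay on either side of CP. From ESC to MES it was at -0.24 ± 0.14 (adjusted p = 0.153), which passed without either CM library (0.00758 and 0.00797). It fell by 0.49 on the log2 scale from MES to CP (adjusted p = 0.0209), which did not pass when any of the 6 ESC, MES and CP libraries was left out (0.0547 to 0.137). From CP to CM the change was -0.11 ± 0.14 (adjusted p = 0.596), at 0.11 without CM replicate 1 and at -0.38 without CM replicate 2, where it passed (0.00581). From ESC to CM *Pspc1* fell 1.80-fold (adjusted p = 0.000365).

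*Nono* behaved unlike its partners. Its TPM was 286 and 272 (ESC), 382 and 390 (MES), 333 and 328 (CP) and 307 and 299 (CM). MES was highest, and the stages did not overlap. The rise from ESC to MES was 0.26 ± 0.09 on the log2 scale (adjusted p = 0.0354), and it did not pass when any of the 6 ESC, MES and CP libraries was left out (0.0584 to 0.202) or with DESeq2 (0.140). *Nono* then fell by 0.38 from MES to CP (adjusted p = 0.00996), a step that did not pass without MES replicate 1 or without CP replicate 2. From CP to CM it was at -0.19 ± 0.09 (adjusted p = 0.160), which passed without CM replicate 1 (0.0109). From ESC to CM the direction depended on the scale. TPM was higher in both CM libraries than in ESC, while TMM-scaled counts gave a fall of 0.32 (adjusted p = 0.0108), and scaling by library totals gave -0.10 (adjusted p = 0.256). Without ESC replicate 1 the fall did not pass either (0.107).

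Since a ratio between genes of the same library does not depend on the scaling, the makeup of the NONO, SFPQ and PSPC1 family was also compared within each library. Of the summed TPM of the 3, *Sfpq* made up 54.5% and 55.3% (ESC), 46.1% and 47.4% (MES), 47.8% and 48.6% (CP) and 41.1% and 44.6% (CM). *Nono* made up 36.7% and 35.4% (ESC), 45.8% and 44.7% (MES), 44.7% and 44.2% (CP) and 51.9% and 45.4% (CM). The ratio of *Nono* to *Sfpq* was thus lowest in ESC (0.657 ± 0.0232, SD, n = 2), near equal in MES (0.969 ± 0.0365) and CP (0.922 ± 0.0181), and at 1.14 ± 0.172 in CM. The shift came with the first step, and CM was above CP in both replicates. *Pspc1* held 6.98% to 9.96%, with both extremes in CM.

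Against the summed TPM of these partners, *Neat1* amounted to 4.60% and 3.67% (ESC), 2.64% and 4.42% (MES), 3.97% and 3.93% (CP) and 25.2% and 13.5% (CM). The partners themselves summed to 779 and 767 in ESC and to 592 and 657 in CM. For 2 libraries against 2 the smallest p of a two-sided exact permutation test is 0.333, and these ratios were not tested.

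**Figure D4:**
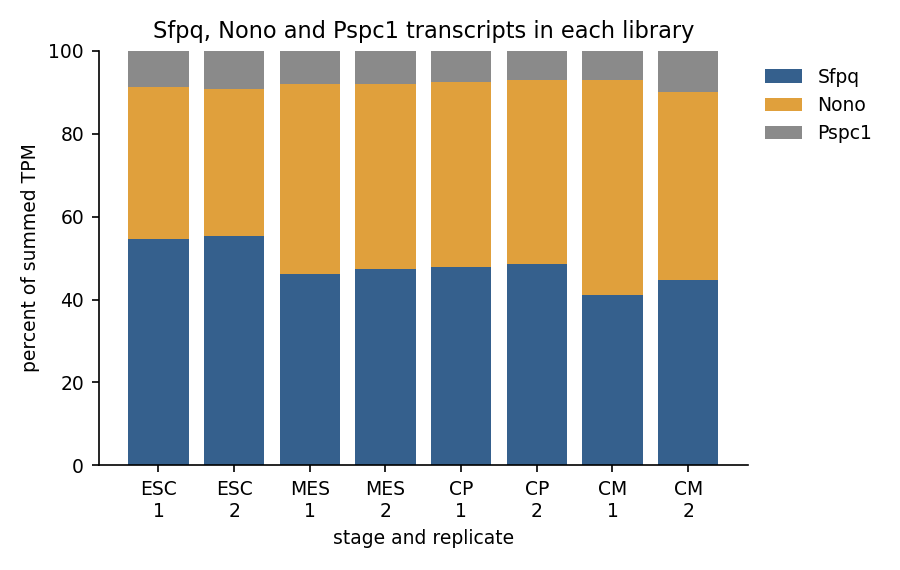
Share of *Sfpq*, *Nono* and *Pspc1* in the summed TPM of the 3 (percent, from 0 to 100) in each library, by stage and replicate. The *Sfpq* share is 54.5% and 55.3% in ESC and at most 48.6% in every later library.

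Promoter sequences of RefSeq (GRCm38.p6) matched 6 of the 7, and *Neat1* was not among them. Since *Sfpq* and *Rbm14* fell at every step, the 250 bases before their starts are shown, with the CCAAT box in capitals in either direction (CCAAT or ATTGG). The *Sfpq* window lies at chr4:127021051-127021300 on the plus strand and the *Rbm14* window at chr19:4811635-4811884 on the minus strand.
Sfpq: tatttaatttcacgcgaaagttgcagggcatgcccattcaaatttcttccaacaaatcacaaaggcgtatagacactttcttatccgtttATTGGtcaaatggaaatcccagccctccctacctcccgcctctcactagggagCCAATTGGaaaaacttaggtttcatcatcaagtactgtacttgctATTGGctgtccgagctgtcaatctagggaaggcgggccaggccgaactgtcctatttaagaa
Rbm14: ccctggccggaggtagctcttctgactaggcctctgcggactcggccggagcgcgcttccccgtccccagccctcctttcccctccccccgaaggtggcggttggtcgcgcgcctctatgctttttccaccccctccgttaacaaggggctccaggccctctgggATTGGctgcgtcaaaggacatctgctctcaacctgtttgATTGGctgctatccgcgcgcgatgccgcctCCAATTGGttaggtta
Each held 4 matches, 2 of which overlap in a run that reads the same on both strands, and 0.840% of 32851 promoters of this length held 4 or more. *Nono* held 2, *Pspc1* 1, and *Tardbp* and *Malat1* 0, where 33.8% of all promoters held at least 1. The GC box (GGGCGG, either strand) was found 3 times in *Tardbp* and once in *Pspc1*, against 32.7% of all promoters with at least 1. A match is a run of letters and not a measured site, and the motifs were picked after the sequences had been seen.

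Of 27 other tested genes for proteins of the paraspeckle, 19 fell and 6 rose from ESC to CM, where 34.6% of all tested genes fell and 39.1% rose. Their median log2 fold change was -0.47 against 0.11 over all tested genes. These falls are on the TMM scale, and some were not falls in TPM. Mean TPM of *Hnrnph1* was 303 in ESC and 317 in CM, and that of *Hnrnpul1* was 101 and 116. The summed TPM of the whole list was 5222 and 5216 in ESC and 3850 and 3999 in CM. The RNA-binding protein gene *Hnrnpf* fell from 885 and 893 TPM in ESC to 352 and 406 in CM (log2 -1.67 ± 0.08, adjusted p = 8.57e-08). *Hnrnpm*, for a splicing regulator, fell by 1.24 (adjusted p = 5.20e-07), and *Srsf10*, also for a splicing regulator, by 1.03 (adjusted p = 1.81e-06). From CP to CM 11 of the 27 fell and 0 rose, against 12.9% and 12.5% of all tested genes.

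Of 20 tested genes for proteins of the nuclear speckle, the surroundings of *Malat1*, 14 fell from ESC to MES (29.1% of all tested genes), 14 from MES to CP (18.4%) and 10 from CP to CM (12.9%). From ESC to CM 17 of the 20 fell (34.6%), with a median of -0.77 against 0.11 over all tested genes. On the TPM scale some of the 17 did not fall, such as *Srsf5*, with a mean of 250 in ESC and 286 in CM. The summed TPM of the list was 4596 and 4684 in ESC and 2975 and 3212 in CM. The SR protein genes *Srsf7*, *Srsf2* and *Srsf1*, which encode splicing factors, fell by 1.63, 1.57 and 1.55 on the log2 scale from ESC to CM. *Srsf2*, the usual marker of speckles, had a TPM of 655 and 645 in ESC and 291 and 302 in CM.

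Of 13 tested genes that make and guard the 3′ ends shown above, 11 fell from ESC to CM, against 34.6% of all tested genes, with a median of -0.92 against 0.11. From CP to CM 1 of the 13 fell, a share near the 12.9% of all tested genes. *Elac2*, for the RNase Z that trims the far end of the stretch folded like a tRNA, had a TPM of 110 and 105 (ESC), 84.1 and 72.8 (MES), 51.5 and 46.6 (CP) and 30.4 and 40.5 (CM) (log2 -2.05 ± 0.13 from ESC to CM, adjusted p = 5.05e-07). *Rpp25*, for a subunit shared by RNase P and RNase MRP, fell from 112 and 110 in ESC to 17.8 and 13.9 in MES and stood at 31.3 and 20.7 in CM. *Mettl16*, whose human product binds the folded end of MALAT1, fell by 1.56 from ESC to CM (adjusted p = 5.18e-07).

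Of 12 other nuclear noncoding RNAs tested, 4 rose and 5 fell from ESC to CM, and 1 rose and 1 fell from CP to CM. These shares lie near those of all tested genes (39.1% and 34.6% from ESC to CM, 12.5% and 12.9% from CP to CM). *Airn*, an imprinted antisense RNA, rose from 0.623 and 0.603 TPM in ESC to 65.6 and 112 in CM, after 42.7 and 59.5 in MES. *Snhg11*, a host of small nucleolar RNAs, fell from 37.7 and 39.6 to 9.04 and 7.64, and *Xist*, the RNA of X inactivation, fell from 1.91 and 2.11 to 0.225 and 0.188.

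Of 15 p53 targets 2 rose from CP to CM, a share near the 12.5% of all tested genes, and from ESC to CM 5 rose and 6 fell (39.1% and 34.6% of all tested genes). *Cdkn1a*, the cell cycle inhibitor, rose by 1.78 from ESC to CM (117 and 138 TPM in CP, 175 and 363 in CM), and the apoptosis gene *Bax* fell by 1.06. The death receptor gene *Fas* rose by 4.64 from ESC to CM, from 0.96 and 0.18 TPM (11 and 2 counts) to 12.5 and 28.1 TPM. Of 13 genes of the response to low oxygen 8 rose from ESC to MES (29.7% of all tested genes) and 1 from CP to CM (12.5%). From ESC to CM 9 of the 13 rose and 1 fell (39.1% and 34.6%). *Vegfa*, the vessel growth factor, rose by 2.16 from ESC to MES, *P4ha1*, a collagen hydroxylase, by 2.03, and *Slc2a1*, a glucose transporter, by 2.05 before falling by 1.35 from CP to CM. Of 12 immediate early and stress genes 8 fell from ESC to MES (29.1% of all tested genes) and 8 rose from CP to CM (12.5%), and from ESC to CM 5 rose and 6 fell (39.1% and 34.6%). *Egr1*, a transcription factor of this class, fell by 2.95 from ESC to MES and rose by 2.22 from CP to CM (adjusted p = 1.50e-05), and in CM it was below ESC (log2 -0.70, adjusted p = 0.000458). *Ier2* fell by 1.80 and *Fosb* fell by 5.63 from ESC to MES, and neither passed from CP to CM (adjusted p = 0.631 and 0.639). The part of these gene groups in the *Neat1* values was not tested.

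Around the locus 23 other genes are annotated within 100 kb of *Malat1* or *Neat1*, and 13 of them were tested. From ESC to CM 6 rose and 4 fell, shares near the 39.1% and 34.6% of all tested genes. *Ltbp3*, for a protein that holds latent TGF-beta, rose from 1.39 and 1.46 TPM in ESC and 3.67 and 4.41 in CP to 27.4 and 28.2 in CM (log2 2.71 from CP to CM, adjusted p = 0.000182). *Slc25a45*, a carrier of the mitochondrial family, was the only other neighbour that rose at this step (log2 0.98, adjusted p = 0.0438). *Frmd8*, the nearest tested gene on the *Neat1* side, was at -0.29 from CP to CM (adjusted p = 0.206). *Cdc42ep2* and *Ehbp1l1* rose by 3.58 and 2.17 from ESC to CM, while *Pola2*, for a subunit of the DNA polymerase that starts replication, fell by 1.51, and *Map3k11*, a kinase gene, rose by 0.70. Most of the 6 neighbours that rose from ESC to CM are named here, but of the 4 that fell only *Pola2* is.

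**Figure D5:**
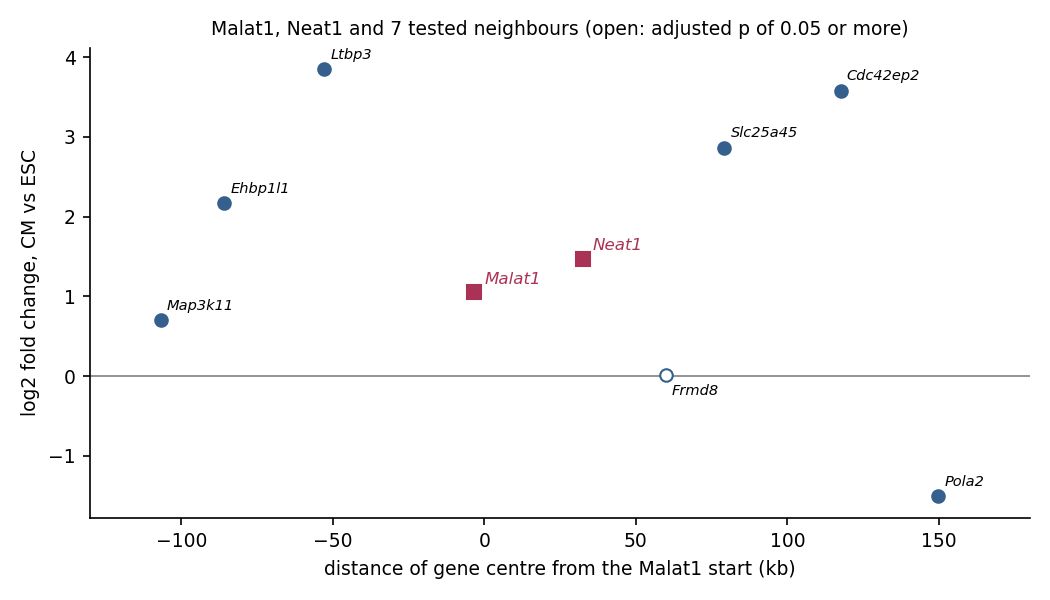
Log2 fold change from ESC to CM (vertical axis) against the distance of each gene's centre from the start of *Malat1* in kb (horizontal axis). Squares show *Malat1* and *Neat1*, and circles show 7 of the 13 tested neighbours, filled where the adjusted p is under 0.05. Most of the 6 neighbours that rose are drawn, but of the 4 that fell only *Pola2* is. *Ltbp3* at 3.85 and *Cdc42ep2* at 3.58 lie above *Neat1* at 1.48, and *Frmd8* lies at 0.02.

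Over the 8 libraries the log2 levels of *Sfpq* and *Rbm14* had a Pearson r of 0.98, those of *Malat1* and *Neat1* one of 0.70, and those of *Nono* and *Sfpq* one of 0.71. These values describe 8 libraries that share 4 stages. Among 12718 genes, *Man2b2* (r = 0.98) and *Pnmal2* were among those with a profile most like that of *Malat1*. Closest to *Neat1* were *Unc119* (0.98), *Phactr1* and *Dbp*, a clock-controlled transcription factor. *Rbm14* was most like *Nup188* and *Matr3*, the latter for a nuclear matrix protein also found in paraspeckles, *Sfpq* like *Nacc1*, *Pms2* and *Faf1*, and *Tardbp* like *Eif3j2*, *Cnot2* and *Larp1*. *Nono* was most like *Taf10*, *Anp32a* and *Adk*, and *Pspc1* like *Sult4a1*, *Klhl21* and *Parg*.

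Some reads cannot be assigned without doubt. *Rbm14* overlaps the coding gene *Gm21992* on the same strand, which held 79 to 194 counts per library, and *Sfpq* overlaps the transcript *Gm12940*, which held 818 to 954, so reads in shared exons could have been left out or split. The small genes annotated inside *Malat1* and *Neat1* on their own strand were at 0 counts in all 8 libraries, and *Gm37376*, on the other strand of *Malat1*, held at most 8. *Masp2*, on the other strand of *Tardbp*, held 36 to 84.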

How the data were processed

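The 8 libraries (ESC, MES, CP and CM, 2 each) were grouped by the titles in their labels. The authors deposited raw counts per gene and TPM. The submitters' processing notes name Trim Galore 0.6.6, HISAT2 2.2.1, featureCounts 2.0.1, DESeq2 1.34.0 and the build GRCm38. Deposited TPM equalled rescaled counts per length to within 4.3e-06.

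Counts were compared with the quasi-likelihood test of edgeR 4.0.16 (TMM scaling, filter on low counts by stage, 1 term per stage) in R 4.3.3, tested on simulated data. Standard errors were derived from the fold change and its F statistic. Alternatives used DESeq2 1.42.0, limma 3.58.1 (voom), other scalings and filters, a replicate block, single pairs of stages and each library left out. Tables and figures used Python 3.11.15. Named list genes are the 3 of each list with the smallest adjusted p at any stage, neighbours are those within 100 kb, and likeness is Pearson's r of log2 CPM with a prior count of 2 among genes with a mean of at least 2. Some genes that these rules name are not reported here. Cell type markers were 8 lists, given as summed TPM. The genes and lists were chosen with earlier results of these data known. Whether replicates came from separate differentiations is not given beyond "biological", so p-values measure the spread between these samples. Positions and sequences are from GENCODE M21 and RefSeq.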

Additional observations from a re-analysis of the deposited data

How the results depend on the processing

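Of the 42 fold changes (7 transcripts in 6 comparisons), 31 passed, and 22 of these passed under all 16 alternatives. The other 9 kept their direction. The count of transcripts passing fell from 5 to 3 from MES to CP with scaling by library totals, and from 5 to 3 from CP to CM when only those stages were fitted. With 1 library left out at a time it ranged from 1 to 4 from ESC to MES (3 with all libraries), from 1 to 6 from MES to CP (5) and from 3 to 6 from CP to CM (5). The replicate numbers of the labels were not taken as pairs. With the replicate block the counts were 3, 5, 5, 7, 4 and 7 from ESC to MES, MES to CP, CP to CM, ESC to CM, ESC to CP and MES to CM, and 7 at any stage, as without it. Correlations of the deviations of same-numbered libraries lay between 0.01 and 0.15. Reversals were limited to changes that did not pass. The log2 fold change of *Malat1* from ESC to MES was -0.036 with DESeq2 and with RLE scaling, and ranged from -0.028 to 0.082 with a library left out. That of *Nono* from ESC to CP was 0.022 with library totals. With a library left out *Neat1* ranged from -0.72 to 0.023 from ESC to MES and from -0.50 to 0.23 from MES to CP, and *Pspc1* from -0.38 to 0.11 from CP to CM.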
